A study of Homo sapiens with 9 samples.

Results

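Daoy is an established human medulloblastoma cell line, and the series lowered DDX3X in it with a pair of independent doxycycline-inducible short hairpin RNAs. One hairpin is directed at the open reading frame (ORF) of the DDX3X mRNA and the other at its 3' untranslated region (3' UTR). The comparison described here sets the 1 library of cells with the ORF hairpin against the 2 libraries of cells with the 3' UTR hairpin, 3 of the 9 RNA-seq libraries in the series. The libraries were chosen by the hairpin named in their labels. The other 6 libraries are the parental line, a vector control, and 4 lines that carry the 3' UTR hairpin together with FLAG-tagged exogenous DDX3X, either wild type or the mutants G302V, R534H and P568L. Hairpin cells are polyclonal populations made with a lentiviral tet-pLKO-puro vector. The labels give a single treatment for every library, 1 µg/ml doxycycline for 72 h, so a treatment that differed between controls and hairpin cells cannot be told apart. All cells, controls included, are Daoy and have no other stated genotype.

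DDX3X encodes a DEAD-box RNA helicase that unwinds structured mRNA leaders during translation initiation, joins stress granules and takes part in sensing foreign RNA. Its gene is recurrently mutated in medulloblastoma. A short hairpin RNA is cut by Dicer into a small duplex, 1 strand of which guides an Argonaute protein to matching mRNA, and each hairpin also has its own set of partly matching transcripts. For that reason knockdown studies commonly use hairpins against separate stretches of an mRNA.

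Reads assigned to genes numbered 12200748 in the ORF library, and 12519035 and 8639551 in the 3' UTR libraries. A gene without a read could still be at 0.230 to 0.365 CPM (reads scaled to library size), the share that 3 reads make up. That limit covers counting error only. Numbers in the deposited names place the parental, ORF and first 3' UTR library in one run of numbers (series A) and the other 6 in a second (series B). No label ties these number series to a sequencing run. Across 11463 genes, the ratio of ORF library to 3' UTR library had a Spearman correlation with transcript GC content of 0.06 within series A and of -0.41 across series, and the fit over all libraries carries the number series as a term. GC trends also differed within a series, which a series term does not remove. Each library's deviation from the gene means correlated with GC at -0.71 in parental, -0.31 in the 3' UTR library and -0.20 in the ORF library of series A. In series B the correlation was -0.11 in the P568L line and 0.38 to 0.58 in the other libraries. The parental library stood apart from the other 8, with 916 genes at least 2-fold below all of them. Of small sets of defining markers, 7 of 10 neural stem and glial, 5 of 10 neuronal, 5 of 6 sonic hedgehog and 2 of 6 epithelial genes (KRT8 and KRT18) reached 1 CPM in all 3 hairpin libraries, whereas 0 of 7 haematopoietic and 0 of the 4 matched endothelial genes did. Longer marker lists held haematopoietic and endothelial genes above 1 CPM in all 3, namely LAPTM5, CSF1R, ESAM and TIE1. The neurodevelopmental regulator ATOH1 and the neuronal gene DCX had no read in any of the 3.

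DDX3X itself was the first check. In TMM-scaled CPM, which also allows for the composition of each library, DDX3X (ENSG00000215301.5) stood at 138.6 in the ORF library, 248.5 in the 3' UTR library of series A and 182.1 in that of series B. The parental library had 681.8 and the vector control 451.6. The 4 re-expression lines lay between 194.8 and 241.3, and gene counts do not separate the exogenous construct from the endogenous mRNA. The ORF library was thus the lowest of all 9, and neither hairpin's values overlapped the controls.

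**Figure D1:**
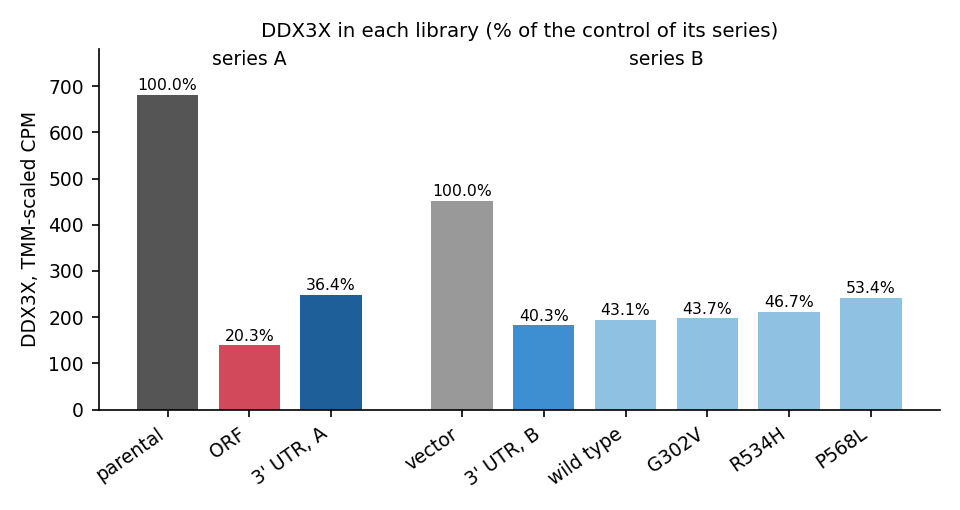
DDX3X in TMM-scaled CPM (vertical axis) in each of the 9 libraries (bars), arranged by number series, with the percentage of that series' control above each bar. The ORF library is at 20.3% of the parental level, and the 3' UTR libraries are at 36.4% and 40.3% of their controls.

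Remaining DDX3X mRNA was 20.3% of the parental level with the ORF hairpin and 36.4% with the 3' UTR hairpin in series A, and 40.3% of the vector control in series B. Within series A, the ORF library held 55.8% of the DDX3X of the 3' UTR library (95% exact interval 52.5% to 59.3%, counting error only). Fitted over all 9 libraries, DDX3X differed between the hairpins by -0.88 ± 0.22 (log2, SE; 95% interval -1.38 to -0.38), with an adjusted p of 0.282 in edgeR's quasi-likelihood test after Benjamini-Hochberg adjustment and 0.0771 in DESeq2. That difference therefore did not pass the test, although its interval excludes 0 and its direction was the same in all 16 other settings. Against the controls, DDX3X fell by 2.26 ± 0.23 with the ORF hairpin (adjusted p 0.042, edgeR) and by 1.38 ± 0.17 with the 3' UTR hairpin (adjusted p 0.0126, edgeR; 0.181 without the series term). The ORF call was lost too without the series term and with a mean of at least 5 CPM required. It was also lost with only the control and hairpin libraries, and with any mutant line left out. A single ORF library has no spread of its own, so each test lends it that of the other groups. Nothing in the labels tells whether libraries of a group came from separate cultures. The p-values rest on the spread among these libraries, which could be technical. That spread also holds any difference between G302V, R534H and P568L, different genotypes that the fit treats as replicates of a single mutant group. In bulk RNA, fewer cells with a gene and less RNA per cell cannot be told apart.

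The direct ratio within series A shows how alike the hairpin transcriptomes were. Of 11868 genes at 5 CPM or more in either library, 61.2% were within 0.32 log2 units of each other in the ORF and 3' UTR libraries. By contrast 233 genes (1.96%) were at least 2-fold higher and 252 (2.12%) at least 2-fold lower in the ORF library, on the log2(CPM + 0.5) scale, and 20 and 14 of these passed 4-fold. This is a ratio of 2 libraries and has no replicate check. Set against the 3' UTR library of series B in its place, 1437 genes were past 2-fold, where series A gave 485.

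Across all 16155 genes tested, edgeR called 0 genes between the hairpins (0%), with 1473 genes at an unadjusted p under 0.05 (740 higher and 733 lower with the ORF hairpin) and 7 genes sharing the smallest adjusted p, 0.0836. DESeq2 with the same groups called 87 genes (0.539%), 45 higher and 42 lower. Removing each library's GC trend before the edgeR fit gave 26 genes (0.161%), and treating the 4 re-expression libraries as further 3' UTR hairpin libraries gave 10. Leaving out the 3' UTR library of series A gave 921 calls, that of series B 85, the parental library 89 and the vector control 92, while leaving out any 1 re-expression line gave 0. On simulated counts made from these libraries, the same fit recovered 17% of 100 genes changed 2-fold and 93% of 100 changed 4-fold, with 15742 genes tested. The changed genes all had a mean of at least 5 CPM. Counts were drawn from a common mean per gene, with a smooth dispersion trend and no series or GC differences between libraries. The real libraries differ in those ways, so these rates are not the power of the real comparison. The genes named next are the 12 of smallest p in each direction among those at least 2-fold from both 3' UTR libraries (99 genes higher, 128 lower). None passed the edgeR threshold, DESeq2 called 24 of these 24, the GC-corrected fit 20 and the fit with the re-expression lines pooled 9. Those fits use the same counts from which the genes were chosen, and are no independent support.

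One set of genes was low wherever the 3' UTR hairpin was present and near the controls with the ORF hairpin. KCTD10 (ENSG00000110906.8), an adaptor of a cullin ubiquitin ligase, stood at 173.5 CPM in the ORF library, 132.5 in parental and 136.3 in vector. The 6 libraries with the 3' UTR hairpin lay between 48.5 and 59.7 (median 54.5), with no overlap. KCTD10 differed by 1.64 ± 0.21 between the hairpins (log2, SE; adjusted p 0.0836, edgeR; 0.0193 with the re-expression lines pooled), and it fell with the 3' UTR hairpin against control (-1.27, adjusted p 0.014, edgeR). Without the series term its adjusted p was 0.132, and 12 of 16 alternatives kept the call.

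FAM120A, which encodes an RNA-binding scaffold protein, had 287.0 CPM in the ORF library, 192.4 in parental and 233.7 in vector, against 106.1 to 128.8 in the 6 libraries with the 3' UTR hairpin. UBE2K, a ubiquitin-conjugating enzyme, had 101.8 with the ORF hairpin, 143.2 in parental and 104.6 in vector, against 31.1 to 46.4 in those 6. ATP5MK, a small subunit of the mitochondrial ATP synthase, had 46.7, 53.1 and 39.5 against 10.1 to 15.5. In each of these the 6 libraries lay apart from the other 3, and each fell with the 3' UTR hairpin against control (FAM120A -0.91, adjusted p 0.0315; UBE2K -1.81, adjusted p 0.0073; ATP5MK -1.85, adjusted p 0.0149; edgeR). Alternatives that kept these calls numbered 9, 13 and 12 of 16 in that order, all lost the call without the series term (adjusted p 0.208, 0.126 and 0.132), and none changed direction. The developmental RNA-binding protein gene BICC1 followed the same order, with 62.4 CPM in the ORF library, 46.6 and 36.7 in the controls and 17.3 to 27.0 in the 6.

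**Figure D2:**
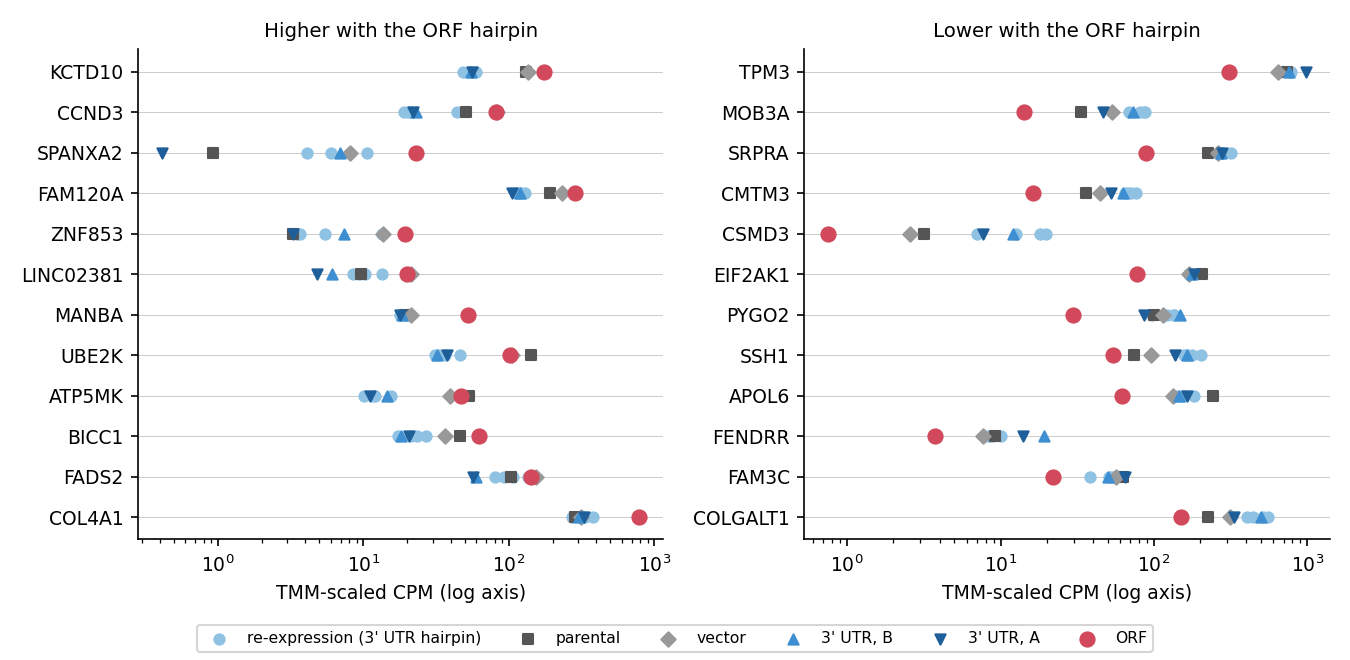
TMM-scaled CPM (horizontal log axis) of the 24 named genes in each of the 9 libraries: ORF hairpin (red), 3' UTR hairpin (dark blue triangles), re-expression lines with the 3' UTR hairpin (pale blue) and controls (grey). KCTD10, UBE2K and ATP5MK separate the 6 libraries with the 3' UTR hairpin from the other 3, while TPM3, SRPRA and EIF2AK1 separate the ORF library from the other 8.

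For another 4 genes the wild type re-expression library stood above both 3' UTR libraries. Their mutant lines were low for some and intermediate for others. The wild type library also exceeded both for KCTD10 (59.7 CPM against 56.2 and 55.3) and UBE2K (46.4 against 37.8 and 32.2). It did so too for ATP5MK (15.5 against 11.1 and 14.6) and BICC1 (27.0 against 20.7 and 18.3). FAM120A, at 116.9 with wild type DDX3X, lay between its 3' UTR libraries (106.1 and 119.4). CCND3, which encodes cyclin D3, had 82.0 CPM in the ORF library, 22.1 and 23.0 in the 3' UTR libraries, 51.0 and 82.7 in the controls, 44.0 with wild type DDX3X and 19.0 to 21.2 with the mutants. FADS2, a fatty acid desaturase, had 142.2 in the ORF library, 56.9 and 59.5 in the 3' UTR libraries, 103.1 and 153.7 in the controls, 136.6 with wild type DDX3X and 79.8 to 107.4 with the mutants, all above both 3' UTR libraries. The long noncoding RNA LINC02381 had 19.9 CPM with the ORF hairpin, 4.79 and 6.13 with the 3' UTR hairpin, 9.72 and 21.5 in the controls, 13.4 with wild type DDX3X and 8.51 to 10.2 with the mutants, also above both 3' UTR libraries. The zinc finger gene ZNF853 had 19.3 with the ORF hairpin, 3.30 and 7.43 with the 3' UTR hairpin, 3.27 and 13.7 in the controls, 13.5 with wild type DDX3X and 3.50 to 5.48 with the mutants, so within series A its 3' UTR library was level with parental. The wild type library is a single one, and its difference from the mutants was not tested here. CCND3 fell with the 3' UTR hairpin against control (-1.52, adjusted p 0.0159, edgeR; 0.168 without the series term, with 12 of 16 alternatives keeping the call) and had 2.05 ± 0.26 between the hairpins (log2, SE; adjusted p 0.0836, edgeR).

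The last 3 of the 12 were high in the ORF library alone. MANBA, the lysosomal beta-mannosidase, stood at 52.1 CPM against 17.9 to 21.4 (median 19.4) in the other 8 libraries. COL4A1, a basement membrane collagen chain, stood at 790.9 against 270.2 to 376.6 (median 314.3). SPANXA2, a cancer-testis gene, stood at 22.9 against 0.413 to 10.7, but it has near-identical copies among which reads can be split, so its level is uncertain. Neither MANBA (-0.15) nor COL4A1 (0.08) passed the test with the 3' UTR hairpin against control.

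Each of the 12 genes named on the lower side was lowest of 9 in the ORF library. TPM3 (ENSG00000143549.15), a tropomyosin of the actin cytoskeleton, had 309.7 CPM with the ORF hairpin against 642.3 to 979.4 (median 763.0) in the other 8 libraries. SRPRA, the signal recognition particle receptor subunit that docks ribosomes at the endoplasmic reticulum, had 88.6 against 224.0 to 319.5 (median 275.4). EIF2AK1, the haem-regulated kinase that phosphorylates the initiation factor eIF2, had 77.5 against 169.0 to 204.6 (median 172.0). The ORF library thus lay below every other library for these genes, with fitted differences between the hairpins of -1.62 ± 0.22 for TPM3, -1.59 ± 0.23 for SRPRA and -1.29 ± 0.22 for EIF2AK1 (log2, SE). Their adjusted p was 0.0836, 0.1 and 0.147 in edgeR, and 0.021, 0.021 and 0.031 with the re-expression lines pooled.

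MOB3A, of the MOB kinase-activator family, had 14.2 CPM against 33.6 to 87.8 in the other 8, and CMTM3, a membrane protein of the MARVEL class, had 16.3 against 36.1 to 76.9. PYGO2, a nuclear partner of beta-catenin, had 29.5 against 86.4 to 147.1, and APOL6, an apolipoprotein L family member, had 62.3 against 133.0 to 243.9. The secreted factor gene FAM3C had 21.9 against 38.6 to 64.6. None of these overlapped, and the 3' UTR hairpin was within 0.53 log2 units of control for all 5. The other 4 were CSMD3, SSH1, FENDRR and COLGALT1. Both 3' UTR libraries lay above both controls for these, and also for TPM3, SRPRA and CMTM3. SSH1, the cofilin phosphatase slingshot, had 53.8 CPM in the ORF library, 73.7 and 96.2 in the controls and 138.2 and 163.4 in the 3' UTR libraries, and it rose with the 3' UTR hairpin (0.84, adjusted p 0.0456, edgeR; kept in 8 of 16 alternatives). CSMD3, a large membrane protein gene, had 0.753, 3.19 and 2.56, and 7.68 and 12 CPM in the same order, and it too rose with the 3' UTR hairpin (1.73, adjusted p 0.0434, edgeR; kept in 7 of 16).

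These arrangements were then counted over all genes, by a rule chosen after the values above were seen. In 40 genes (0.248%) the 6 libraries with the 3' UTR hairpin all lay at least 1.5-fold below the other 3, and in another 40 (0.248%) all lay at least 1.5-fold above. Those counts were 64 and 60 without the parental library, and by this rule leaving out a library can only keep or raise a count. By edgeR, 22 of the 40 lower and 13 of the 40 higher genes had passed the test for the 3' UTR hairpin against control, where 1.99% of all genes did (321 of 16155; 2 to 2484 with 1 library left out, the extremes being the P568L line and the vector control), a comparison that shares its libraries with the rule. The lower set held VAMP3, a vesicle fusion protein, with 112.3 CPM in the ORF library, 145.5 and 116.5 in the controls and 45.2 to 61.8 in the 6, MBTPS1, the site-1 protease that activates SREBP and ATF6, with 87.9, 139.6 and 134.7 against 40.7 to 48.8, and the polarity kinase gene MARK3 with 121.6, 113.7 and 95.2 against 41.9 to 60.5. All genes named from these counts were picked after their values were seen. The higher set held ADAM19, a membrane metalloprotease, with 132.3 CPM in the ORF library, 102.4 and 102.1 in the controls and 223.0 to 359.3 in the 6, and ADGRG1, an adhesion receptor of neural progenitors, with 26.9, 19.4 and 32.7 against 69.1 to 177.6.

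For the ORF library alone, 37 genes (0.229%) lay at least 2-fold below and 23 (0.142%) at least 2-fold above each of the other 8. Without the parental library these became 68 and 35, and here too the rule allows no fall. The same count gave 28 below and 20 above for the 3' UTR library of series A, 916 and 46 for parental, 1 and 28 for vector, and at most 8 below and 12 above for the other libraries of series B. The number above was thus larger in parental and vector than in the ORF library. Beside the genes already named, the low set held TGFB2, a transforming growth factor ligand, at 10.8 CPM against 25.2 to 41.7, and CNRIP1, a cannabinoid receptor interacting protein gene, at 17.3 against 43.4 to 59.3. The high set held PDGFRB, the platelet-derived growth factor receptor beta, at 105.5 against 18.8 to 50.4, STK38L, an NDR kinase, at 159.7 against 46.5 to 77.7, and CEBPD, an inflammatory transcription factor gene, at 21.2 against 1.92 to 6.20. With 1 ORF library, what belongs to the hairpin, to the cell population and to the library cannot be told apart.

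The dose question was asked with libraries that were kept separate, although the 3' UTR hairpin enters both the choice and the reading. Genes were chosen in series B, by the ratio of the 3' UTR library to vector, and were then read in series A, by the ratio of ORF to 3' UTR library. The 475 genes (3.77% of 12592) at least 2-fold lower in series B had a median ORF to 3' UTR ratio of 0.56 (log2) in series A, so the library with less DDX3X was the higher one. It lay above the 3' UTR library for 363 of them (76.4%), with 137 at least 2-fold above and 14 at least 2-fold below. The 242 genes (1.92%) at least 2-fold higher in series B had a median of -0.53, with the ORF library below the 3' UTR library for 205 (84.7%), 49 past 2-fold below and 1 past 2-fold above. All 12592 genes had a median of -0.01.

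Against the parental library, the 475 genes had a median of -0.85 in the 3' UTR library and -0.28 in the ORF library, and the 242 genes had 0.95 and 0.32. The genes that moved with the 3' UTR hairpin in series B were therefore nearer to the parental level in the cells with the lower DDX3X mRNA. Over 12592 genes the series B ratio and the series A ratio had a Pearson correlation of -0.43 and a Spearman correlation of -0.40. These values are across genes, which are not independent replicates, between ratios that share no library but share the 3' UTR hairpin. Genes were chosen for a change with that hairpin and then read against it, and no reverse choice with the ORF hairpin was made. An order by DDX3X dose and changes particular to the 3' UTR hairpin or its cells therefore cannot be told apart here. Removing the GC trend gave medians of 0.53 and -0.54.

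**Figure D3:**
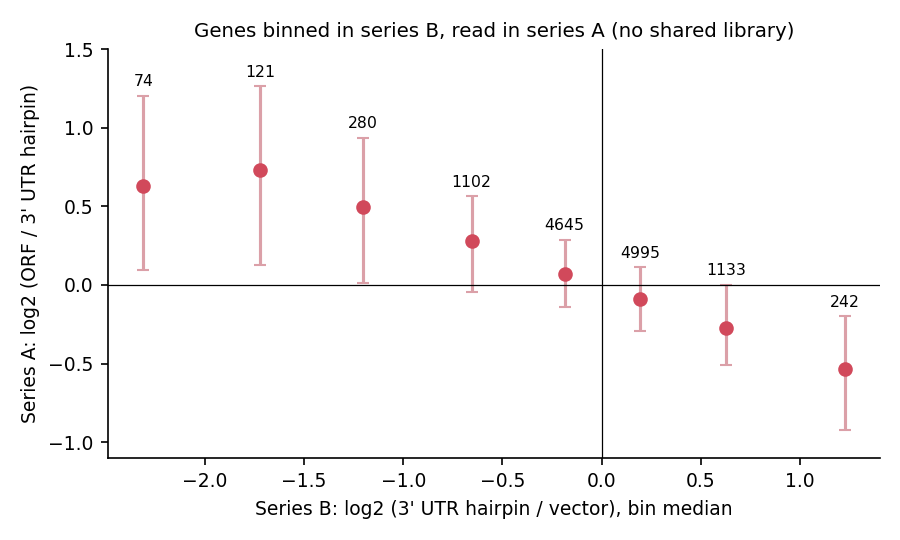
Genes binned by the log2 ratio of the 3' UTR library to vector in series B (horizontal axis, bin medians) and their log2 ratio of ORF to 3' UTR library in series A (vertical axis), with medians (points), quartiles (bars) and the number of genes above each bar. The medians run from 0.63 and 0.73 in the lowest bins to -0.53 in the highest.

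The genes called for the 3' UTR hairpin against control were also read in the ORF library, and these comparisons share their controls. The 156 higher genes had a median of 1.20 with the 3' UTR hairpin and 0.85 with the ORF hairpin, and the 165 lower genes had -1.53 and -0.84 (log2, fitted over all libraries). The genes were chosen by their distance from the same controls, so nothing is read from how the medians compare. For the ORF hairpin against control, edgeR called 1 of 16155 genes (0.00619%), DDX3X, with 2601 at an unadjusted p under 0.05, and DESeq2 called 409. Leaving out the vector control gave 2280 calls there, the 3' UTR libraries of series A and B 2245 and 2265, the parental library 7, and any 1 mutant line 0.

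Each gene's response was then classed by its ratio to the control of its own series. Both 3' UTR libraries were at least 2-fold from control for 114 higher and 207 lower genes. The ORF library was nearer to parental than the 3' UTR library of series A by at least 1.5-fold for 68 of the 114 (59.6%) and 130 of the 207 (62.8%), and within 1.5-fold of it for 43 and 72. It was further from parental by at least 1.5-fold, the order that DDX3X itself follows, for 3 and 5. The 3' UTR library of series A enters both the choice and the reading here, so these counts are a description.

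**Figure D4:**
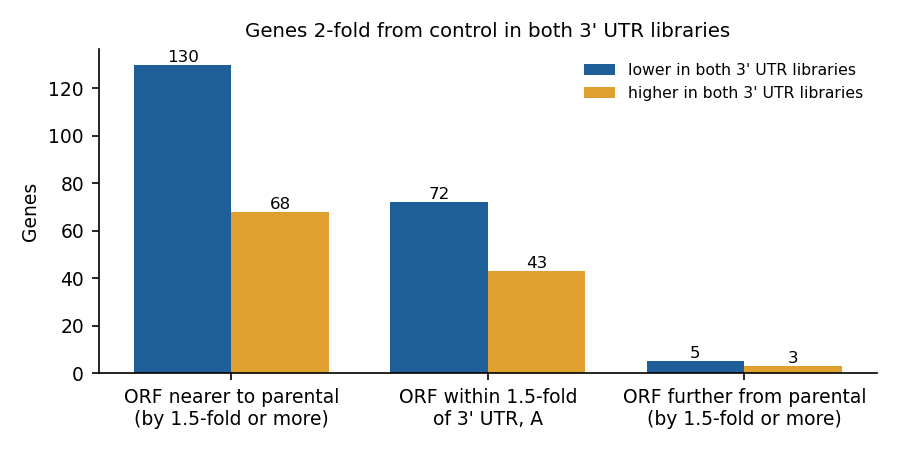
Number of genes (vertical axis) at least 2-fold lower (blue) or higher (orange) than control in both 3' UTR libraries, split by where the ORF library lies against the 3' UTR library of series A. The graded class at the right holds 5 and 3 genes, against 130 and 68 in the class nearer to parental at the left.

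The graded genes other than DDX3X were low in counts or spread widely. COL16A1, a fibril-associated collagen gene, had 13.5 CPM in parental, 34.1 in vector, 47.3 and 70.2 in the 3' UTR libraries and 71.8 in the ORF library. The receptor tyrosine kinase gene ROS1 had 0.622 and 0.984 in the controls, 6.77 and 3.89 in the 3' UTR libraries and 11.5 in the ORF library, and SERPINA6, which encodes corticosteroid-binding globulin, had 0.622 and 0.886, 2.64 and 3.66, and 5.77. OAS2, an interferon-induced synthetase that activates RNase L, had 61.6 and 33.3, then 27.9 and 5.78, and 8.03 CPM with the ORF hairpin. The ORF value of OAS2 lay between the 3' UTR libraries in unpaired terms, and only the ratio within series A was graded. KCNIP1 and SHISA3, a potassium channel partner and a Wnt and FGF antagonist, were the other named members, at 0.669 and 1.59 CPM in the ORF library.

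A response with the 3' UTR hairpin alone, with the ORF library within 0.32 log2 units of parental, was seen in 20 higher and 37 lower genes. SALL2, a zinc finger factor, had 11.4 and 12.6 CPM in the 3' UTR libraries, 36.5 and 44.1 in the controls and 32.9 in the ORF library. PRRX1, a mesenchymal homeobox gene, had 5.78 and 2.71, then 19.4 and 33.0, and 15.9. ELOVL7, a fatty acid elongase, had 7.27 and 4.60, then 22.9 and 18.7, and 24.8. The lipid flippase gene ATP8A1 had 2.48 and 3.89, then 11.4 and 13.9, and 11.2. The re-expression lines play no part in this class. With wild type DDX3X, SALL2, PRRX1, ELOVL7 and ATP8A1 had 25.9, 23.1, 9.19 and 6.28 CPM, each above both 3' UTR libraries. With the mutants they had 8.66 to 17.7, 8.58 to 12.4, 4.22 to 9.27 and 3.58 to 5.67. Each of these 4 fell with the 3' UTR hairpin (-1.74, -2.59, -1.82 and -2.01; adjusted p 0.0413, 0.0353, 0.0415 and 0.0307, edgeR; calls kept in 8, 10, 9 and 10 of 16 alternatives and lost without the series term), and the ORF hairpin was at -0.18, -0.71, 0.03 and 0.06. Among the higher genes the noncoding LINC01615 had 11.2 and 42.8 CPM against 3.19 and 4.92 in the controls and 2.59 in the ORF library. DIO2, which activates thyroid hormone, had 8.76 and 13.8 against 2.33 and 3.84, and 2.09. With wild type DDX3X, LINC01615 had 22.4 CPM and DIO2 had 4.07.

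An ORF response without a 3' UTR response was seen in 18 higher and 23 lower genes. Beside COL4A1, MANBA, EIF2AK1, SRPRA and FAM3C these included C6orf62, with 148.3 CPM in the ORF library against 242.9 to 387.5 in the other 8. Opposite responses were seen in 1 gene higher with the 3' UTR hairpin, CSMD3, and in 2 lower ones. KLHDC8A, a kelch domain gene, had 12.9 CPM with the ORF hairpin, 3.42 and 4.72 in the controls and 1.16 and 1.65 in the 3' UTR libraries. JPH4, a junctophilin of neuronal membranes, had 5.69, then 1.79 and 6, and 0.496 and 1.77, so that its ORF value did not exceed vector.

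Gene lists were read in the same fit, as counts and medians beside all 16155 genes, which had 8130 higher and 8025 lower in the ORF library and a median of 0.00. The ORF library was above both 3' UTR libraries for 33.3% of all genes and below both for 33.5%. No list member passed the edgeR threshold between the hairpins.

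Of 18 genes of the RNA interference machinery, 12 were higher and 6 lower with the ORF hairpin, with a median of 0.16 (0.29 without the 3' UTR library of series A), and 9 were above both 3' UTR libraries. DICER1, the enzyme that cuts hairpins, had 194.0 CPM in the ORF library, 100.5 and 77.6 in the 3' UTR libraries, 133.6 and 98.3 in the controls and 76.4 to 93.9 in the re-expression lines. For DICER1 the ORF library was thus the highest of 9, with a difference between the hairpins of 0.93 ± 0.20 (log2, SE; adjusted p 0.247, edgeR). AGO2, the slicing Argonaute, had 57.3 against 37.5 and 35, and AGO3 had 71.9 against 46.7 and 36.1, with controls at 22.9 and 41.7 and at 65.7 and 49.0. For AGO2 the G302V line, at 56.3, was close to the ORF library. The RNA editing enzyme gene ADAR had 376.8 against 513.3 and 509.4.

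RNA sensing and interferon genes leaned the other way. Of 18 double-stranded RNA sensor genes, 13 were lower with the ORF hairpin (median -0.49, or -0.17 without the 3' UTR library of series A) and 9 lay below both 3' UTR libraries. Of 49 interferon-stimulated genes, 34 were lower (median -0.28, or -0.42 without that library). Of the 49, 19 lay below both (38.8%), near the 33.5% of all genes. RIGI, the cytosolic sensor of viral RNA ends, had 32.9 CPM in the ORF library, 75.3 and 22.6 in the 3' UTR libraries and 68.6 and 38.6 in the controls, so the 3' UTR libraries lay on either side of it. IFI44 had 84.1 with the ORF hairpin, 192.8 and 88.7 with the 3' UTR hairpin and 187.6 and 120.7 in the controls, and the antiviral gene RSAD2 had 7.61, then 24.6 and 10.6, and 14.9 and 14.4. TRIM22, a restriction factor, had 3.18, then 11.2 and 15.8, and 8.95 and 6.1. The ORF library was the lowest of 9 for IFI44, RSAD2 and TRIM22, while IFI44 and RSAD2 in the 3' UTR library of series B were below vector and in that of series A above parental. Other members did not follow this order. For comparison, IFIT1 had 10.95 CPM in the ORF library against 27.9 and 8.85 in the 3' UTR libraries, and IFIT3 had 48.2 against 109.2 and 37.4. Of the 49 genes, 15 were higher with the ORF hairpin, among them IFITM1 with 2.59 against 0.661 and 1.30. Fitted against control, the median of the 49 genes was -0.81 with the ORF hairpin and -0.45 with the 3' UTR hairpin.

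Stress-response genes had the largest share on one side of both 3' UTR libraries among the lists drawn. Of 27 targets of ATF4, the transcription factor of the integrated stress response, 22 were lower with the ORF hairpin (median -0.28, or -1.03 without the series term) and 20 (74.1%) lay below both 3' UTR libraries, beside 33.5% of all genes. PPP1R15A, which directs dephosphorylation of eIF2, had 36.2 CPM in the ORF library, 77.4 and 92.1 in the 3' UTR libraries and 38.9 and 60.1 in the controls. ASNS, asparagine synthetase, had 25.4, then 48.6 and 113.8, and 63.6 and 158.1. The ORF library was the lowest of 9 for both, and for PPP1R15A it lay close to parental. SHMT2, a mitochondrial enzyme of serine metabolism, had 199.7 CPM, between 151.9 and 312.1 in the 3' UTR libraries, with 181.6 and 448.2 in the controls, and its fitted difference of 0.46 turned to -0.22 without the series term. ATF4 target levels also moved with the number series: they summed to 1581.7 CPM in the ORF library, 1869.3 in the 3' UTR library and 1674.9 in parental of series A, against 3696.4 in the 3' UTR library and 3988.1 in vector of series B. The part of the series in the count below both libraries was not tested, and within series A the median ratio was -0.25. EIF2AK1, a kinase upstream of ATF4, was low in the ORF library, as given above, and a link between it and these targets was not tested.

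Cell cycle lists for G1, S and G2/M had small negative medians with the ORF hairpin, and differences between phases were not tested. In the G1 and S lists 50% and 52.9% of genes lay below both 3' UTR libraries, beside 33.5% of all genes. Of 20 tested G1 cyclins, CDKs and inhibitors, 14 were lower with the ORF hairpin (median -0.14, or -0.074 without the 3' UTR library of series A and -0.27 without the series term), and CCND3 was the main exception. CCNE1, cyclin E1, had 9.37 CPM in the ORF library, 21.9 and 15.2 in the 3' UTR libraries and 16.5 and 12 in the controls, the lowest of 9, with -1.21 ± 0.29 between the hairpins (adjusted p 0.26, edgeR). CDKN2D, an inhibitor of CDK4 and CDK6, had 4.60 against 9.91 and 12.4, with 10.3 and 9.84 in the controls, also the lowest of 9. Of 34 S phase genes, 25 were lower (median -0.16, or -0.096 with the re-expression lines pooled) and 18 below both 3' UTR libraries, among them GINS2 of the replicative helicase with 19.98 against 36.6 and 33.9, and the ribonucleotide reductase subunit RRM2 with 226.4 against 473.6 and 359.5. UNG, uracil DNA glycosylase, went the other way with 121.2 against 76.4 and 72.7. Of 36 G2/M genes, 24 were lower, with a median of -0.08 (0.06 without the series term). Only 6 (16.7%) lay below both 3' UTR libraries and 8 (22.2%) above both, beside 33.5% and 33.3% of all genes. Among genes tied to DDX3X in earlier work (18 tested, 12 lower, median -0.29, or 0.05 without the 3' UTR library of series A), the CDK inhibitor CDKN1A had 30.02 CPM in the ORF library against 58.7 and 58.3, with 67.4 and 102.8 in the controls, the lowest of 9.

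Lists of the translation machinery were near the centre. Of 40 initiation factors 23 were higher and 17 lower (median 0.03, or 0.15 without the 3' UTR library of series A), and 27 stress granule proteins had 15 and 12 (median 0.01, or -0.048 without that library). EIF4G2, a scaffold of cap-independent initiation, had 1347.8 CPM in the ORF library against 2044.7 and 1458.2, with 1703.3 and 1322.3 in the controls. IGF2BP3, an mRNA-binding protein, had 116.1 against 202.9 and 178.2, with 96.7 and 97.4 in the controls, and IGF2BP2 had 139.3 against 90.4 and 129.2. Of 30 DEAD-box genes tested, 18 were higher and 12 lower (median 0.09, or 0.20 without the 3' UTR library of series A), and DDX3X, at -0.88, was the only one more than 0.30 log2 units lower with the ORF hairpin. DDX24 had 357.9 CPM in the ORF library against 259.2 and 227.7, with 366.5 and 321.5 in the controls.

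Matrix, contractile and signalling genes differed gene by gene. Of 36 collagen and matrix genes, 23 were higher and 13 lower (median 0.15, or 0.05 to 0.54 with 1 library left out, and 0.05 as the ratio within series A), with BGN, the proteoglycan biglycan, at 136.4 CPM in the ORF library, 26.1 and 12.3 in the 3' UTR libraries and 79.0 and 124.9 in the controls. BGN had 80.8 CPM with wild type DDX3X and 12.1 to 33.2 with the mutants. THBS2, a thrombospondin, had 45.9 against 108.7 and 350.8, with 35.4 and 127.2 in the controls. For these genes the ORF library was nearer to parental than the 3' UTR library of series A. Of 28 tropomyosin and contractile genes 16 were lower (median -0.05, or 0.21 without the 3' UTR library of series A and -0.13 as the ratio within series A). While TPM3 was the lowest of 9 in the ORF library, TPM2 was the highest, with 568.8 CPM against 398.6 and 291.1 in the 3' UTR libraries and 279.3 and 311.0 in the controls. Of 30 NF-kB targets 15 were higher and 15 lower. Their median was 0.01, or 1.05 without the 3' UTR library of series A and -0.21 as the ratio within series A. The chemokine gene CXCL2 had 4.60 against 0.744 and 0.354, and TRAF1 went the other way with 10.7 against 40.1 and 15.8. Of 30 immediate early and ERK feedback genes 14 were higher. The median was -0.04, or 0.27 without the 3' UTR library of series A and -0.09 as the ratio within series A. EGR1 had 54.9 against 23.8 and 16.8, and 37.6 and 61.2 in the controls. PHLDA1 was lower, at 86.3 against 151.8 and 89.9. Of 25 genes listed as YAP targets 15 (60%) lay below both 3' UTR libraries, beside 33.5% of all genes. Their median was -0.18, or 0.57 without the 3' UTR library of series A. TEAD1 had 152.6 against 247.7 and 208.7, and IGFBP3 went the other way with 134.2 against 80.1 and 78.0.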

How the data were processed

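Poly(A) RNA of 9 Daoy libraries was made into libraries with a TruSeq RNA kit and read as 100 nt single ends, per the labels' protocols. The deposited tables hold whole read counts per gene for 57820 Ensembl identifiers, made by the authors with tools among which the submitters' processing notes name HISAT2, HTSeq and GRCh37. The sources used here do not give their roles or versions. The 5 summary lines that name no gene (20.3% to 35.8% of reads) were left out. No strand setting is stated, so reads of overlapping genes on either strand can be mixed, and genes with near-identical copies are uncertain. Symbols came from a table of gene names (90.52% of identifiers), and coordinates are not given because the reference supplied is of another build. No library was a copy of another: the pair of 3' UTR libraries had a chi-square of 39.6 and the pair of controls one of 96.3 for each degree of freedom.

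Groups came from the labels: control 2, 3' UTR hairpin 2, ORF hairpin 1, re-expressed wild type DDX3X 1 and re-expressed mutants 3. Genes were tested in R 4.3.3 by the robust quasi-likelihood test of edgeR 4.0.16 after TMM scaling. Group and number series were its terms and all 9 libraries entered. Genes had to reach 1 CPM in 2 or more libraries, which left 16155. Residual degrees of freedom were 3, and the prior added 6.75. The ORF and wild type groups, with 1 library each, add no spread, and the mutants form a single group of different genotypes. A gene was called at a Benjamini-Hochberg adjusted p under 0.05. Ratios used log2(TMM-scaled CPM + 0.5) for genes at 5 CPM or more, and classes used steps of 2-fold, 1.5-fold and 0.32 log2 units. The fit was tested on simulated data. Alternatives were DESeq2 1.42.0, other scaling, filters, pseudocounts, folds and groups, removal of each library's GC trend (GENCODE v29 transcripts), and leaving out each library but the ORF one. Genes eligible to be named are DDX3X, DDX3Y (not tested, for low counts), the 12 of smallest p in each direction among genes with a mean of 5 CPM that were 2-fold from both 3' UTR libraries, the 6 furthest from control per direction of each class, and the 3 of smallest p per list. Other named genes are said to be chosen after their values were seen, or stand beside a rule's gene for comparison. The comparison, its 24 gene lists and these rules were chosen with earlier results of these data known, and the counts over all libraries were added after seeing the values.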

Additional observations from a re-analysis of the deposited data

How the results depend on the processing

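DDX3X kept its direction between the hairpins and stayed short of the threshold in 16 of 16 alternatives (-0.99 to -0.84 with 1 library left out). Numbers of called genes did not hold. In the order ORF against 3' UTR hairpin, ORF against control, 3' UTR against control, DESeq2 called 87, 409 and 1101, no count filter 292, 1209 and 2029, GC removal 26, 40 and 867, and pooling the re-expression lines 10, 2 and 525. For the last 2 of these comparisons a mean of at least 5 CPM gave 0 and 189, no series term 0 and 1, and only the control and hairpin libraries 0 and 0. With 1 library left out the 3 counts ranged from 0 to 921, 0 to 2280 and 2 to 2484. The cause was not tested.

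The series A ratio had 1827 genes past 1.5-fold, 104 past 3-fold, 910 from 1 CPM, 234 from 20 CPM, and 1437 against the 3' UTR library of series B. Medians of the genes lower and higher in series B were 0.37 and -0.35 at 1.5-fold, 0.74 and -0.88 at 3-fold, and 0.44 and -0.46 from 1 CPM, in the same direction throughout. Classes in the order graded, level, nearer to parental, 3' UTR only, ORF only and opposite held 24, 609, 459, 255, 368 and 17 genes at 1.5-fold, 1, 20, 56, 11, 1 and 0 at 3-fold, and 4, 68, 89, 20, 26 and 0 from 20 CPM. From 1 CPM, graded, level, 3' UTR only and ORF only held 14, 187, 90 and 62. A pseudocount of 2 CPM left 3 graded, 114 nearer to parental, 30 3' UTR only and 0 opposite genes, and one of 0.1 CPM gave 6 opposite. In these settings the class nearer to parental held more genes than the graded class. Without the parental library the ORF library stood apart low in 68 and high in 35 genes. The libraries with the 3' UTR hairpin did so low in 64 and high in 60. Leaving out a library can only keep or raise these counts, so their rise is no check of them.

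Of named genes, 8 turned direction in 1 alternative each, short of the threshold there. With 1 library left out, SHISA3 ran from -1.02 to 0.12, TRAF1 from -1.90 to 0.028, MYLK from -0.75 to 0.017, LAPTM5 from -1.06 to 0.94 and TP63 from -0.45 to 0.30, the upper value being that without the 3' UTR library of series A. Without the series term SHMT2 was at -0.22, CSF1R at 0.092 and KRT8 at -0.097. No paired analysis was possible because the ORF hairpin has 1 library, so the hairpin groups share fewer than 2 replicate numbers. One ORF library, and depths at which 3 reads are 0.230 to 0.365 CPM, limit what genes of low count can show.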

Other observations

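Of 23 p53 targets 13 were lower with the ORF hairpin (median -0.09, or 0.18 without the 3' UTR library of series A), with RRM2B, a ribonucleotide reductase subunit, at 18.1 CPM in the ORF library and 33.5 and 24.4 in the 3' UTR libraries. Of 19 cancer-testis genes 13 were lower (median -0.28, or -0.70 without the 3' UTR library of series A). CTAG2, a member of that group, had 0.334 CPM with the ORF hairpin, 7.77 and 9.32 with the 3' UTR hairpin, 0.311 and 1.18 in the controls, 12.4 with wild type DDX3X and 0.105 to 3.98 with the mutants. The P568L and wild type lines were high with the 3' UTR libraries and the other mutants were not. Of 17 sonic hedgehog pathway genes 10 were higher (median 0.09, or -0.08 without the series term), with the antagonist gene SFRP1 at 51.8 CPM against 90.4 and 93.2. Neural stem and glial markers had a median of -0.50 over 14 genes (0.032 without the 3' UTR library of series A, and -0.23 as the ratio within series A), with SOX9 at 33.8 CPM against 55.4 and 52.4 and VIM, the intermediate filament vimentin, at 1315.9 against 1817.5 and 1064.6. Neuronal, epithelial, endothelial and haematopoietic markers had medians of 0.06, 0.01, 0.43 and -0.09 over 13, 7, 5 and 3 tested genes, and as the ratio within series A they had 0.33, -0.20, 0.33 and -0.07. Leaving out 1 library turned the sign of the neuronal (-0.17), epithelial (-0.20) and haematopoietic (0.94) medians. No gene of these lists passed edgeR's threshold between the hairpins. TIE1, an endothelial receptor gene, had 80.9 CPM in the ORF library, 54.9 and 24.4 in the 3' UTR libraries and 50.3 and 37.0 in the controls, beside 0.167 CPM of the endothelial cadherin gene CDH5 in the ORF library and 0.826 and 0.118 in the 3' UTR libraries.

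GPNMB, a lysosomal and melanosomal glycoprotein gene, was picked after its values were seen. It had 13.6 CPM in the ORF library and 35.3 in the 3' UTR library of series A, against 233.2 in parental, 209.8 in vector, 319.0 in the 3' UTR library of series B and 402.5 to 558.7 in the re-expression lines. The ORF library was thus the lowest of 9, at least 2-fold below the 3' UTR library of series A, and the 3' UTR libraries lay further from each other than that.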
